A study of Mus musculus with 20 samples.

Results

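The mitochondrial ribosomal proteins were taken as every gene of the count table whose name is Mrpl or Mrps followed by a number and at most 1 letter, with Mrpl read as the large subunit and Mrps as the small subunit. This gave 78 genes of 22660 in the table, 49 large and 29 small. The samples were plantaris muscles of old male C57BL/6J mice, 2 years of age by the labels, in 4 groups of 5 mice. Mechanical overload (MOV) was made by bilateral synergist ablation, in which parts of the soleus and gastrocnemius were cut away so that the plantaris carried their load, and sham mice had only the skin opened. Each mouse had either dasatinib (5 mg/kg) with quercetin (50 mg/kg), together called D + Q, a pair of drugs used to remove senescent cells, or vehicle by gavage. The protocol gives gavage on days 7 and 10 and collection of the muscle on day 14, while the design text gives day 14 for the second gavage of the sham mice. Crossing surgery and drug gave the groups vehicle sham, vehicle MOV, D + Q sham and D + Q MOV, which share strain, sex, age and muscle, and RNA came from the whole muscle with all of its cell types.

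Mitochondria carry a ribosome of their own, which makes the few proteins encoded in mitochondrial DNA, all of them membrane subunits of the respiratory chain and of ATP synthase. Its ribosomal RNAs are transcribed in the mitochondrion, whereas all of its proteins are encoded in the nucleus, made in the cytosol and imported, so that the 2 genomes together supply 1 particle. The small subunit binds and decodes the mRNA and the large subunit forms the peptide bond. Some proteins have counterparts in bacteria and others are found only in mitochondrial ribosomes. Skeletal muscle is rich in mitochondria, more so in oxidative than in glycolytic fibres.

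The deposited values were estimated read counts per gene, with totals of 17887495 to 26234505 per mouse. All 78 members had at least 10 counts in all 20 mice. Their counts ran from 100 to 2997 with a median of 618, and the median coefficient of variation among 5 mice of a group was 6.68 to 8.28%. No pair of libraries of a group was as alike as counting error alone would make them, since the smallest ratio of observed to counting variance was 6.53. Levels are given in CPM, the count of a gene per 1000000 counts of its library, after TMM scaling, which sets a scale for each library such that most genes do not move between libraries. The TMM factors were 0.83 to 0.88 in the 10 sham mice and 1.06 to 1.23 in the 10 MOV mice, so the scaling itself differed between sham and MOV. For this reason the counts of members called with MOV are also given from a fit scaled by the total counts alone, and values for MOV that do not name a scaling are TMM-scaled.

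Summed over the 49 large subunit genes, the level was 2067 ± 128 CPM in vehicle sham, 1930 ± 62.0 in D + Q sham, 1630 ± 82.8 in vehicle MOV and 1500 ± 40.8 in MOV with D + Q (mean ± SD, n = 5 mice each). The 29 small subunit genes summed to 1023 ± 51.8, 973 ± 23.9, 833 ± 48.7 and 764 ± 23.5 CPM in the same order. For both sums, every MOV mouse lay below every sham mouse with TMM scaling. As a share of all counts, with no TMM scaling, the order was not the same. The large subunit took 1792 ± 118, 1696 ± 53.8, 1841 ± 72.2 and 1744 ± 42.7 CPM of the total, and sham and MOV mice overlapped. The ratio of large to small subunit counts, which no scaling touches, was 2.02 ± 0.055, 1.98 ± 0.039, 1.96 ± 0.032 and 1.96 ± 0.027, so the subunits kept nearly the same proportion in all groups.

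**Figure D1:**
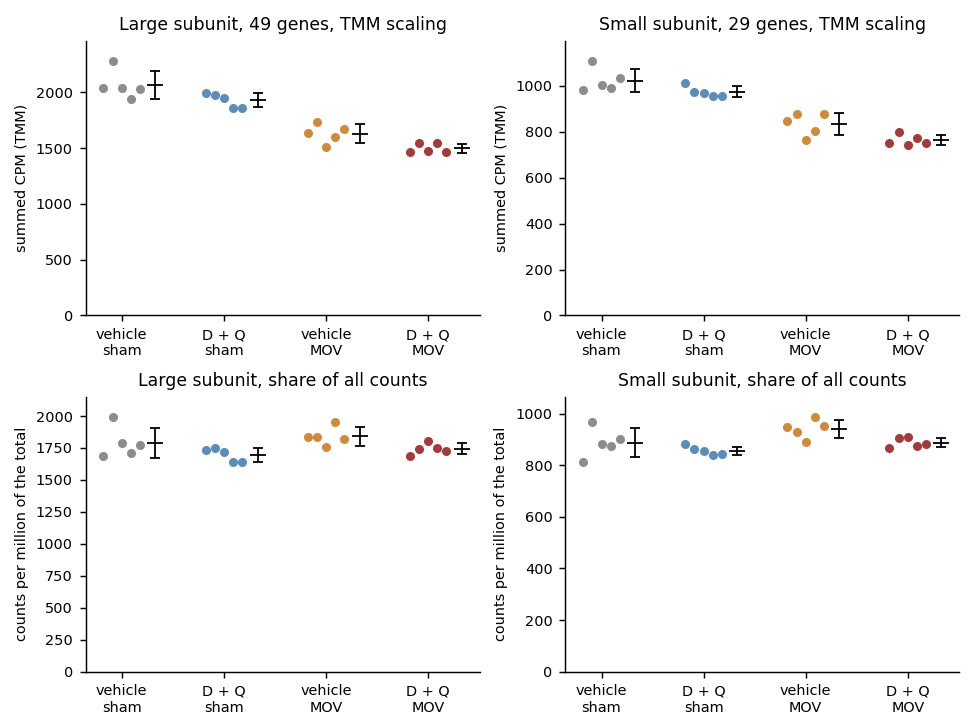
Summed level of the 49 large and 29 small subunit genes in each mouse, in CPM after TMM scaling (top) and in CPM of the total counts, unscaled (bottom), with 1 point a mouse and the mean ± SD of 5 mice beside each group. With TMM scaling all MOV mice lie below all sham mice, and as a share of all counts the groups overlap.

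Between members, levels were compared per kilobase. Over the merged exons of each gene, the highest means over the 20 mice were those of Mrpl34 (40.9 CPM per kb), Mrps23 (34.2) and Mrpl18 (31.8), and the lowest were those of Mrps35 (1.06), Mrpl23 (1.83) and Mrps22 (1.98). The order depended on the length taken. Over the canonical transcript, a length chosen after the annotation was seen, the highest were Mrpl42 (142.6 CPM per kb), Mrps21 (112.8) and Mrpl33 (75.9), and the lowest were Mrps2 (2.69), Mrpl19 (3.55) and Mrps35 (3.71). Before any division by length, Mrpl42 had the highest mean of all members at 110.5 CPM.

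With vehicle, the TMM-scaled level was lower in MOV than in sham for 51 of the 78 members at an adjusted p under 0.05 (edgeR's quasi-likelihood test with Benjamini-Hochberg adjustment over all genes tested), 31 of 49 in the large and 20 of 29 in the small subunit, and higher for none. Over all 14601 genes tested, 29.8% were called lower and 30.7% higher. The median log2 fold change was -0.297 in the large and -0.275 in the small subunit, against -0.015 over all genes, and 73 of the 78 members had a negative value (51.0% of all genes). In 41 members every MOV mouse lay below every sham mouse, which 22.6% of all genes tested did. With D + Q, MOV against sham called 52 members lower (32 large and 20 small) and none higher, beside 30.9% of 14913 genes called lower and 34.4% called higher. The medians were -0.288 and -0.281, against 0.023 over all genes, 72 of the 78 values were negative (48.7% of all genes), and in 46 members the groups did not overlap (26.5% of all genes).

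The direction of these calls depended on whether TMM or the total counts set the scale. Of the settings run, only total counts alone turned the medians of the subunits positive. With the total counts alone, 24 members were higher and 4 lower with vehicle, and 26 were higher and 10 lower with D + Q. Over all genes, 7671 of 14601 were then called higher and 1457 lower with vehicle. With D + Q, 8378 of 14913 were called higher and 1658 lower. The median over all genes then moved to 0.361 and 0.387, and the share of higher calls among all genes called rose from 50.8% to 84.0% with vehicle and from 52.6% to 83.5% with D + Q. Relative to the median of all genes, the members lay at -0.281 with vehicle and at -0.307 with D + Q under TMM scaling and at -0.282 and -0.308 on total counts, and with either scaling 73 and 74 of the 78 lay below that median. This likeness was fixed by the construction, since a change of scaling shifts all genes by nearly the same amount. Under TMM and total counts alike, 4 members were lower with vehicle, namely Mrpl1, Mrpl16, Mrpl18 and Mrpl42, and 10 were with D + Q, among them Mrpl16, Mrpl42, Mrpl45, Mrpl55, Mrps18b and Mrps27. Conversely, 2 members called lower with vehicle by TMM, and 5 with D + Q, were called higher on total counts.

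**Figure D2:**
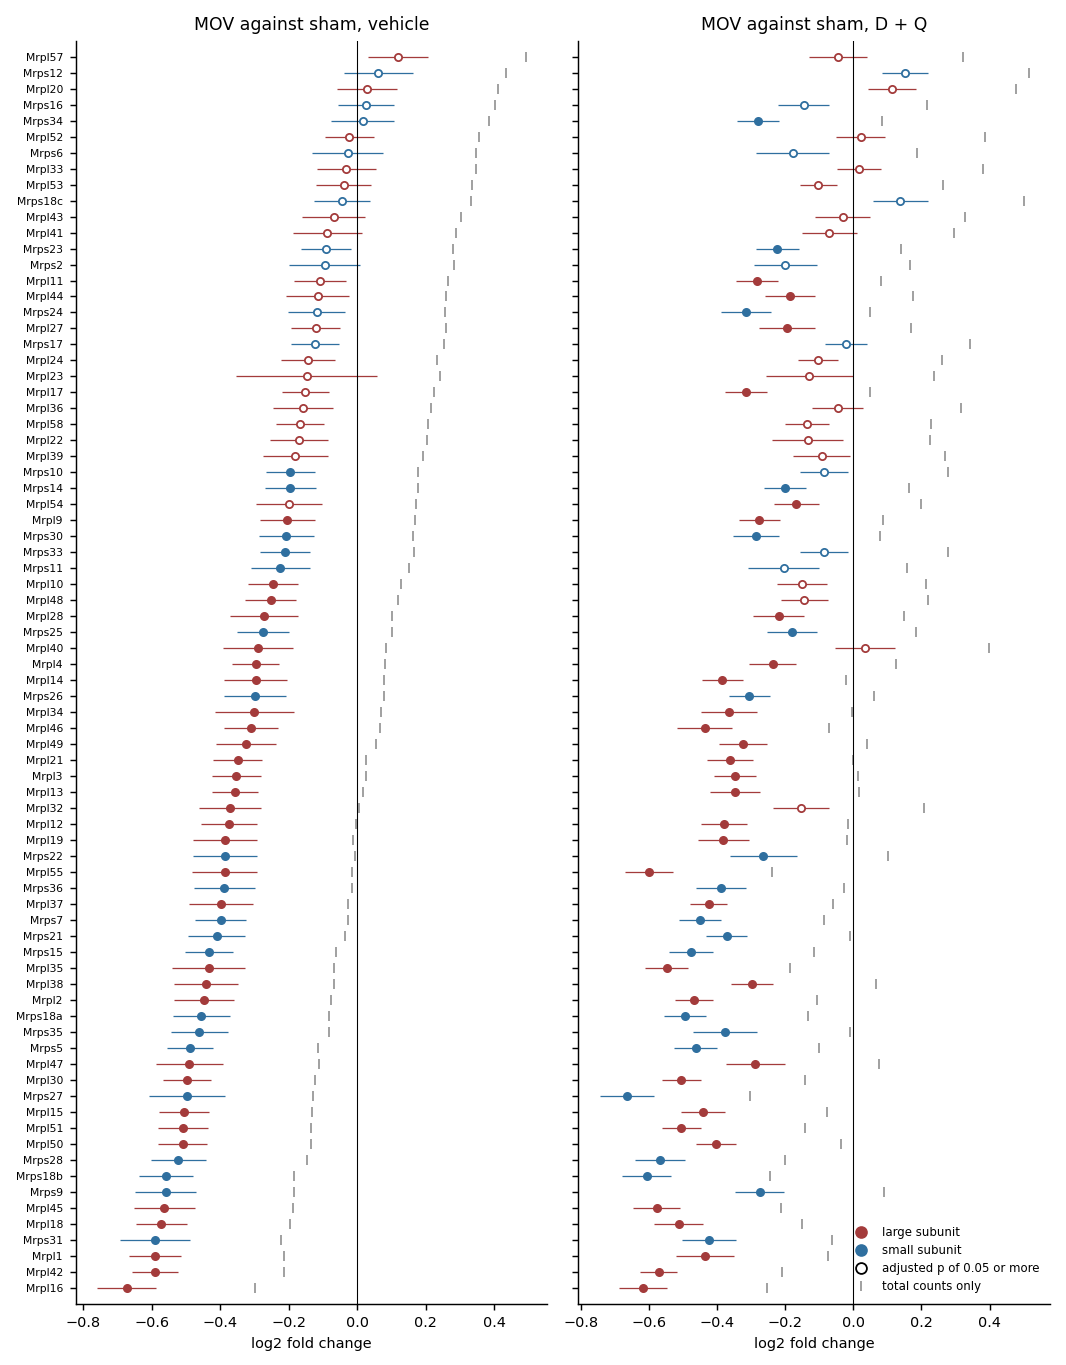
Log2 fold change of each of the 78 members, MOV against sham, with vehicle (left) and D + Q (right), ordered by the vehicle value. Circles are TMM-scaled values with 1 SE, filled where the adjusted p was under 0.05, and grey ticks are the values on total counts alone; circles lie mostly left of 0 (51 and 52 called lower), whereas most ticks lie right of it.

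In the large subunit, the lowest value with vehicle was that of Mrpl16, whose bacterial relative lies near the site where peptide bonds form. Mrpl16 was 40.0, 37.7, 37.9, 34.1 and 33.4 CPM in the vehicle sham mice and 24.95, 25.1, 18.9, 22.3 and 23.2 in the vehicle MOV mice. The D + Q sham mice had 41.0, 37.7, 36.1, 34.0 and 33.7, and the D + Q MOV mice 24.0, 23.4, 23.9, 20.35 and 24.0. All MOV mice were below all sham mice, at about the same level with and without D + Q. The log2 fold change of Mrpl16 was -0.67 ± 0.086 (SE, adjusted p = 8.87e-06) with vehicle and -0.62 ± 0.071 (adjusted p = 5.56e-07) with D + Q, and on total counts it was also called lower.

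Mrpl42, found in mitochondrial ribosomes and not in bacterial ones, was 137.7, 150.5, 139.3, 127.8 and 143.8 CPM in vehicle sham and 87.0, 94.8, 85.3, 100.2 and 94.7 in vehicle MOV. It was 120.8, 131.5, 132.5, 125.3 and 124.2 CPM in D + Q sham and 82.6, 83.7, 78.4, 90.4 and 80.1 in D + Q MOV. The groups were again apart, with log2 fold changes of -0.59 ± 0.068 and -0.57 ± 0.055. Mrpl1, a protein of the mobile stalk by which tRNA leaves, changed by -0.59 with vehicle and -0.44 with D + Q. Mrpl55 changed by -0.39 and -0.60, and Mrpl45, which lies at the exit of the peptide tunnel, by -0.56 and -0.58. On total counts Mrpl55 was at -0.015 and -0.24 and Mrpl45 at -0.19 and -0.21. Mrpl3, in which mutations cause cardiomyopathy, was lower by TMM in both comparisons (-0.35 and -0.35), and on total counts its values were 0.02 and 0.01.

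Mrpl12 is a protein of the stalk that recruits translation factors, and it also binds the mitochondrial RNA polymerase. Its levels were 99.8, 124.0, 102.2, 95.8 and 103.6 CPM in vehicle sham and 78.95, 91.2, 75.1, 73.3 and 84.6 in vehicle MOV. All 5 MOV mice were below all 5 sham mice, and the log2 fold change was -0.38 ± 0.082 with vehicle and -0.38 ± 0.067 with D + Q, with -0.0047 and -0.017 on total counts. The 2 proteins at the base of that stalk differed in their calls. Mrpl10 was lower with vehicle (-0.25, adjusted p = 0.00947) and at -0.15 with D + Q (adjusted p = 0.0788), and Mrpl11 was at -0.11 with vehicle (adjusted p = 0.226) and lower with D + Q (-0.28, adjusted p = 0.000612). Mrpl44, another gene of inherited cardiomyopathy, had -0.12 (adjusted p = 0.295) and -0.19 (adjusted p = 0.0313), a call lost without D + Q sham mouse 1 or 4 or D + Q MOV mouse 1, 2, 3 or 5 (-0.18 to -0.15). Mrpl58, a peptidyl-tRNA hydrolase that frees stalled ribosomes, was at -0.17 (adjusted p = 0.0504) and -0.14 (adjusted p = 0.0756) and passed in neither comparison. On total counts Mrpl10, Mrpl11, Mrpl44 and Mrpl58 all had positive values in both comparisons.

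In the small subunit, Mrps27, a protein of the pentatricopeptide repeat family that binds RNA, was 28.0, 35.5, 29.8, 27.9 and 30.25 CPM in vehicle sham and 23.3, 21.5, 18.95, 16.6 and 26.2 in vehicle MOV. In D + Q sham it was 32.4, 29.1, 29.2, 24.9 and 28.8 CPM, and in D + Q MOV 16.6, 19.15, 16.97, 19.5 and 16.4. Sham and MOV did not overlap with either treatment. The log2 fold changes were -0.50 ± 0.11 and -0.67 ± 0.080, the latter being the lowest of all members with D + Q, and on total counts -0.13 and -0.30. The proteins Mrps18a, Mrps18b and Mrps18c, all relatives of 1 bacterial protein, are placed apart in the ribosome, Mrps18b and Mrps18c in the small and Mrps18a in the large subunit. Mrps18b had 41.4, 42.8, 38.7, 41.7 and 37.1 CPM in vehicle sham and 27.4, 26.6, 24.2, 26.3 and 32.0 in vehicle MOV, again with no overlap. Mrps18b changed by -0.56 ± 0.079 and -0.61 ± 0.072 and Mrps18a by -0.45 ± 0.083 and -0.49 ± 0.061. Mrps18c was at -0.04 (adjusted p = 0.665) and 0.14 (adjusted p = 0.146), and on total counts at 0.33 with vehicle.

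Mrps31 changed by -0.59 with vehicle and -0.42 with D + Q, and Mrps5, a counterpart of a bacterial protein of the mRNA entry, by -0.49 and -0.46. Mrps22, mutated in a disease of combined respiratory chain deficiency, changed by -0.39 and -0.26. Mrps36, which works as a subunit of the 2-oxoglutarate dehydrogenase complex and not as a ribosomal protein in spite of its name, changed by -0.39 in both. Mrps30, a large subunit protein by its place, changed by -0.21 and -0.29. With vehicle, the call of Mrps30 was lost without vehicle sham mouse 2, 3, 4 or 5 or vehicle MOV mouse 1, 3 or 4 (-0.21 to -0.16), and with D + Q the call of Mrps22 was lost without D + Q sham mouse 1, 2 or 5 or D + Q MOV mouse 1 or 4 (-0.24 to -0.22). All of these calls are with TMM scaling. On total counts Mrps31, Mrps5 and Mrps36 were called in neither comparison, and their values lay between -0.22 and -0.015. With Mrps30 and Mrps18a counted as large subunit proteins and Mrps36 left out, 33 of 51 large and 17 of 26 small subunit members were lower with vehicle, and 34 and 17 with D + Q.

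Mrps12, the protein of the decoding site in which bacterial resistance to streptomycin arises, passed in neither comparison. Mrps12 was 22.9, 31.05, 24.7, 25.6 and 26.5 CPM in vehicle sham and 22.0, 29.98, 25.9, 27.5 and 30.4 in vehicle MOV. The groups overlapped, and the log2 fold change was 0.06 ± 0.10 (adjusted p = 0.621). With D + Q it was 0.15 ± 0.067 (adjusted p = 0.0571). On total counts Mrps12 was called higher in both, at 0.43 and 0.52. Mrps16, a counterpart of a bacterial small subunit protein, was at 0.03 with vehicle and -0.15 with D + Q and passed in neither. Mrps34, needed for the stability of the small subunit, was 44.9, 56.5, 50.6, 51.6 and 49.9 CPM in vehicle sham and 50.5, 55.6, 43.4, 45.0 and 60.6 in vehicle MOV, with a log2 fold change of 0.02 (adjusted p = 0.896). In D + Q sham it was 54.3, 52.8, 50.9, 56.1 and 50.6 CPM, and in D + Q MOV 43.75, 46.5, 42.3, 41.7 and 37.7. Here the groups did not overlap, and the log2 fold change was -0.28 ± 0.062 (adjusted p = 0.000688).

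The comparisons of MOV with sham in the vehicle and in the D + Q mice rest on different animals. They shared 44 lower members, 86.3% of those called with vehicle and 84.6% of those called with D + Q, of which 27 were large and 17 small. Since most members were called in each comparison, many would be shared without any link. Then 7 were called with vehicle alone, namely Mrpl10, Mrpl32, Mrpl40, Mrpl48, Mrps10, Mrps11 and Mrps33, and 8 with D + Q alone, namely Mrpl11, Mrpl17, Mrpl27, Mrpl44, Mrpl54, Mrps23, Mrps24 and Mrps34. The remaining 19 passed in neither. These groups rest on TMM scaling, and on total counts 4 members were lower with vehicle and 10 with D + Q. Across the 78 members the log2 fold changes correlated with a Pearson r of 0.823, given as a description because members share libraries. Members were also split by the number in their names alone, a rough rule that takes the lower numbers as those with a bacterial counterpart. Single members may fall on the wrong side, and the higher-numbered class includes Mrps36. The classes had like shares, with 29 of 44 lower-numbered and 22 of 34 higher-numbered members lower with vehicle, and 28 and 24 with D + Q. On total counts 3 and 1 were lower with vehicle and 4 and 6 with D + Q. The log2 fold change went lower with the mean log2 CPM of a member (Pearson r = -0.274 and -0.383 over 78 members) and was less tied to the canonical transcript length (-0.176 and -0.134) and to GC content (0.148 and 0.055).

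**Figure D3:**
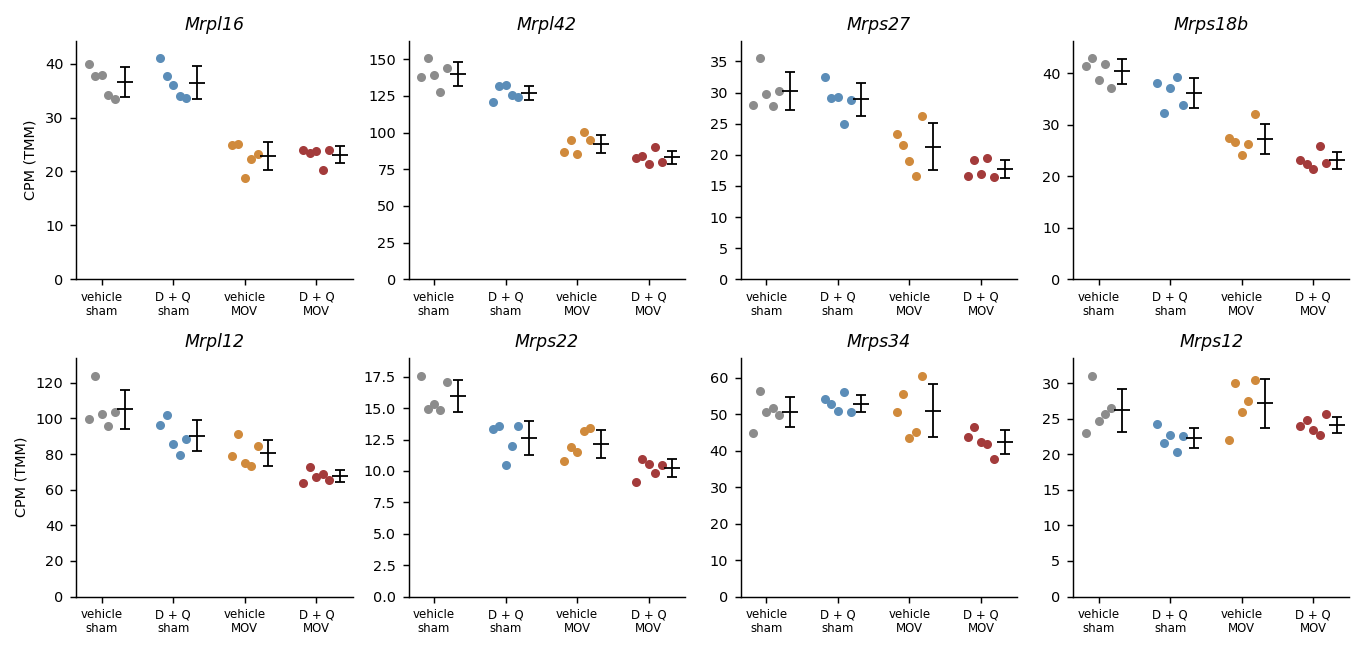
Level of 8 members in each mouse, in CPM after TMM scaling, with the mean ± SD of 5 mice beside each group. Mrpl16, Mrpl42, Mrps27 and Mrps18b are lower in all MOV mice than in all sham mice of the same drug arm by TMM and were also called lower with D + Q on total counts, whereas Mrps12 overlaps between the groups.

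Ratios within a library, which no scaling can move, were set beside these values. Per 1000 counts of the cytosolic ribosomal proteins, the members had 206.7 ± 9.05 counts in vehicle sham, 194.7 ± 14.3 in D + Q sham, 159.1 ± 9.70 in vehicle MOV and 153.0 ± 10.4 in MOV with D + Q. Sham mice spanned 177.9 to 222.5 and MOV mice 137.5 to 168.8, without overlap. Per 1000 counts of the mRNAs of mitochondrial DNA, the members had 17.55 ± 1.25, 18.2 ± 1.36, 28.0 ± 2.75 and 27.9 ± 1.18 counts, so this ratio was higher in every MOV mouse than in any sham mouse. Per 1000 counts of 7 muscle fibre markers, the members had 24.0 ± 2.30, 21.45 ± 1.14, 29.2 ± 3.16 and 28.8 ± 2.63. In both drug arms the members were thus lower in MOV relative to cytosolic ribosomal proteins and higher relative to mitochondrial mRNAs.

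Markers of other cells moved together with MOV. All 5 macrophage markers, all 4 fibroblast markers and both tendon markers rose in both comparisons under both scalings, and by TMM 2 of 3 endothelial and 2 of 3 satellite cell markers did. Their part in the members' values was not tested. The summed macrophage level was 35.2 to 106.4 CPM in sham and 176.8 to 538.4 in MOV, and the fibroblast level 343 to 908.5 in sham and 4334 to 10790 in MOV. The muscle fibre sum was 122400 to 141100 CPM in sham and 68960 to 99160 in MOV, and of its 7 genes 3 were called lower and 1 higher with vehicle (Myh2), and 4 lower and 2 higher with D + Q (Myh2 and Myh7). Its largest gene in sham was Myh4, with means of 58290 CPM in sham and 19710 in MOV with vehicle, and 62960 and 21440 with D + Q. Acta1 had 23640 and 22540 with vehicle and 25020 and 19280 with D + Q, and Myh1 15600 and 19580, and 14780 and 16730. This sum, and the ratio to it above, thus depend heavily on Myh4 and do not measure fibre RNA as a whole. Of the 3 Schwann cell and 2 smooth muscle markers 1 each rose in both comparisons, both adipocyte markers fell with vehicle, and no erythroid or T cell marker was called. No list was at 0 in any group. In whole muscle, fewer cells of a type and less RNA per cell cannot be told apart. The muscle fibre markers showed muscle in all 20 samples.

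The promoters of the members were examined for letters known as binding motifs of factors of nuclear genes for mitochondria. RefSeq windows (GRCm38.p6, 250 bases before to 50 after the start) were at hand for 69 of the 78 members, 75 windows in all. The motifs searched on both strands were GCGCA, any base and GCGC in a row for NRF1, CCGGAAGT for ETS factors such as GABPA, and AAGATGGC for YY1, none of which contains another. At least 1 was present in 45.3% of the members' windows, against 18.9% of those of all genes tested and 10.4% of all promoters. NRF1 letters were in 17.3% (9.18% of genes tested, 4.60% of all promoters), ETS in 16% (7.30%, 3.89%) and YY1 in 16% (4.07%, 2.75%). The median log2 fold change with vehicle was -0.312 in the 34 members with a motif and -0.245 in the 35 without. With D + Q it was -0.310 and -0.219. These medians are of TMM-scaled values, and a match is only a run of letters.

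The promoters of 4 members are printed here, because they hold different motifs or none and were described above: Mrps27 with 1 ETS and 1 YY1 match (chr13:99344616-99344815, plus strand), Mrpl45 with 3 NRF1 matches (chr11:97315546-97315745, plus strand), Mrpl12 with 1 NRF1 match (chr11:120484467-120484666, plus strand) and Mrpl16 with none (chr19:11770245-11770444, plus strand). Each runs from 170 bases before to 30 bases after the start in GRCm38.p6, 5′ to 3′, with motif letters in capitals.
Mrps27: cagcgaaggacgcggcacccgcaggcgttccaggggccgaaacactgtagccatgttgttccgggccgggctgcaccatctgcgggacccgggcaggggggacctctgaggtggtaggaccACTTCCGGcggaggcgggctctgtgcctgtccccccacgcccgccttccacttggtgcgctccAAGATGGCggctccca
Mrpl45: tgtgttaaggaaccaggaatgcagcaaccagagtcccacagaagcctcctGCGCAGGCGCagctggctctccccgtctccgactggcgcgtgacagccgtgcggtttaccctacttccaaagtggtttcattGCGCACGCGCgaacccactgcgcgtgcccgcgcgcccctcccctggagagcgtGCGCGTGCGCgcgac
Mrpl12: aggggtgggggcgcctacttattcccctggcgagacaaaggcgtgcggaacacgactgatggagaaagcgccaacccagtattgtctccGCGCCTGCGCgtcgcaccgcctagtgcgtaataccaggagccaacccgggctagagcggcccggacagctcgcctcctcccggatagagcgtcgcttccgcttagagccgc
Mrpl16: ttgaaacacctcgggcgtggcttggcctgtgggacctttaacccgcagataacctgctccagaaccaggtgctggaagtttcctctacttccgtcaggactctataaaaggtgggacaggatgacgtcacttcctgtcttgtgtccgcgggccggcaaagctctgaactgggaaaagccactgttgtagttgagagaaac
Mrpl16, which had the lowest value with vehicle, held none of the 3 motifs in this window, and Mrpl45, with 3 NRF1 matches, changed by -0.56.

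Other genes of mitochondrial translation moved in the same direction by TMM. The 5 ribosomal proteins that carry other names were lower in both comparisons, with log2 fold changes of -0.41 and -0.36 for Dap3, a GTP-binding protein of the small subunit, -0.54 and -0.50 for Ptcd3, -0.39 and -0.37 for Chchd1, -0.28 and -0.25 for Aurkaip1, and -0.25 and -0.36 for Gadd45gip1 (on total counts 1 and none was lower). Of 25 assembly and rRNA modification genes, 18 were lower with vehicle and 19 with D + Q, most of all Malsu1, which keeps the subunits apart during assembly (-0.80 and -0.71), whereas Mterf4 rose with D + Q (0.43). Of 16 translation factors tested, 12 and 11 were lower, led by Lrpprc, which stabilises mitochondrial mRNAs (-0.84 and -0.80). Of 17 mitochondrial aminoacyl-tRNA synthetases, 13 and 12 were lower, by up to -0.56 for Fars2 with vehicle and -0.65 for Pars2 with D + Q, while Lars2 rose with D + Q (0.62, adjusted p = 0.0292) and was at -0.63 with vehicle (adjusted p = 0.106). The 17 synthetases summed to 763 to 1688 CPM in vehicle sham and 609.5 to 974.5 in vehicle MOV. With D + Q they summed to 708 to 918.5 in sham and 832 to 1455 in MOV, so mice of a group differed widely. What lay behind this spread was not tested. On total counts, 3 higher and 2 lower of the 25 assembly genes were called with vehicle, 3 and 5 of the factors, and 1 and none of the synthetases.

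The transcripts of mitochondrial DNA were lower under either scaling. All 13 mRNAs were called lower in both comparisons, with medians of -0.98 and -0.94 by TMM and -0.60 and -0.58 on total counts, the lowest being mt-Nd2 (-1.23 and -1.20), a subunit of complex I. The ribosomal RNAs were lower by TMM, with values of -0.50 and -0.49 for mt-Rnr1 of the small subunit and -0.87 and -0.83 for mt-Rnr2 of the large subunit, and 1 of the 2 was lower on total counts. All mitochondrial transcripts together took 15.5% of counts in vehicle sham, 14.3% in D + Q sham, 10.2% in vehicle MOV and 9.65% in MOV with D + Q. Of 12 regulators of mitochondrial genes, 2 rose and 8 fell with vehicle and 2 and 7 with D + Q by TMM, against 5 and 2 and then 6 and 3 on total counts. Ppargc1a, the coactivator of mitochondrial biogenesis, changed by -0.93 and -0.74 (-0.54 and -0.38 on total counts), and Myc by 0.95 and 1.49 (1.35 and 1.86). The level of Myc was low, at 2.42 to 3.91 CPM in vehicle sham and 3.365 to 11.38 in vehicle MOV, which overlapped. With D + Q, Myc was 1.9 to 3.785 CPM in sham and 4.797 to 16.68 in MOV. Of 79 cytosolic ribosomal proteins tested, 23 were higher and 6 lower with vehicle and 24 and 10 with D + Q by TMM, against 75 and 76 higher on total counts. Over all genes tested, 30.7% were higher and 29.8% lower with vehicle and 34.4% and 30.9% with D + Q by TMM. On total counts 7671 of 14601 and 8378 of 14913 genes were higher. By TMM the share of these proteins called higher was thus not above that of all genes. Rpl3 rose (1.75 and 1.66) and its muscle-specific relative Rpl3l fell (-0.82 and -0.76), under both scalings.

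**Figure D4:**
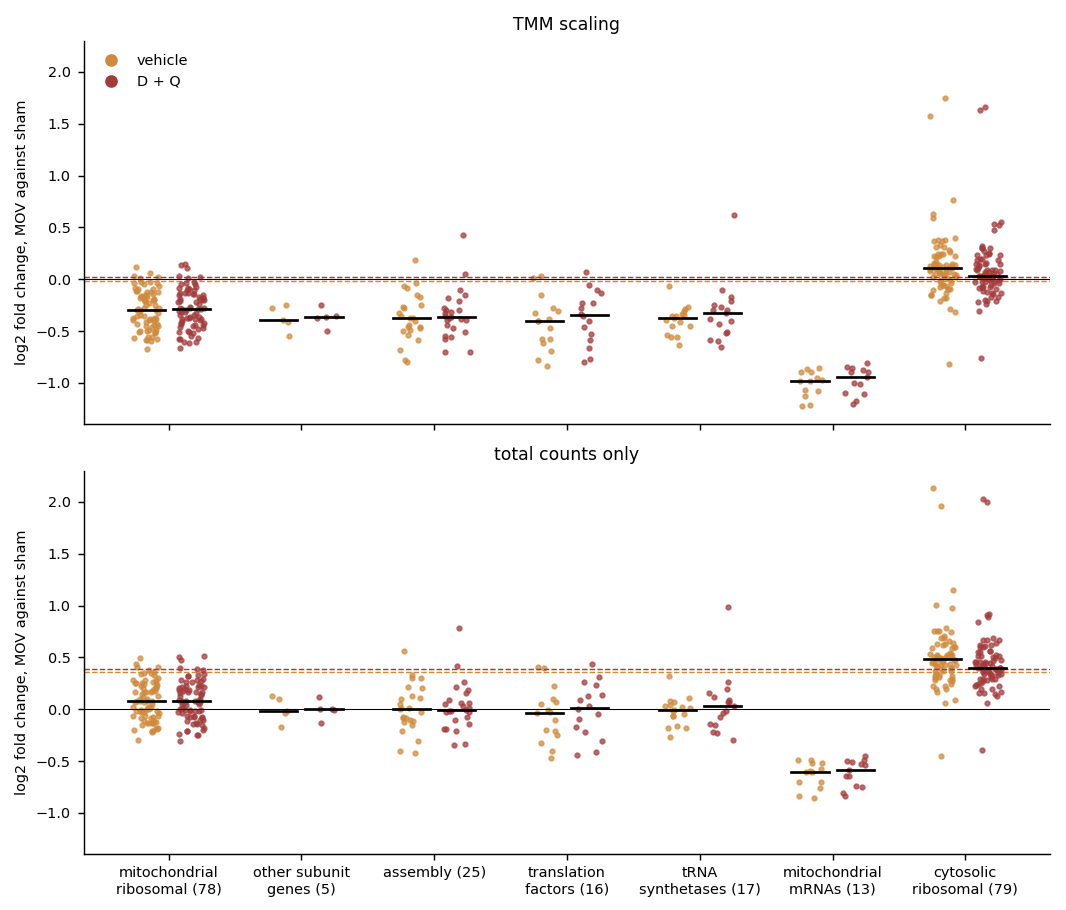
Log2 fold change of MOV against sham for each gene of 7 lists, with TMM scaling (top) and total counts alone (bottom), with vehicle and D + Q in 2 colours, the list's median as a bar and the median over all genes tested as a dashed line. The members' medians lie below the dashed line in both panels, at a distance that scaling by construction hardly changes. They lie below 0 in the upper and above 0 in the lower panel, while all 13 mitochondrial mRNAs are below 0 in both.

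In the MOV mice, D + Q against vehicle called no member and no gene at an adjusted p under 0.05 with edgeR (lowest adjusted p of a member 0.523), whereas DESeq2 called 13 genes, none of them a member. In simulated counts for this comparison, with 200 genes changed by a log2 size of 0.3, edgeR recovered 0 of them, so small changes could be missed. At an unadjusted p under 0.05, 25 members were lower and none higher, beside 4.61% and 4.19% of the 15238 genes tested. The median of the members was -0.133, and 71 of 78 had a negative value (49.5% of all genes). The lower count was 10 on total counts alone, 16 with correction for length and GC content and a block, 15 without D + Q MOV mouse 3 and 16 without vehicle MOV mouse 5. Rn18s, the cytosolic small subunit rRNA, took 1.21% ± 0.277 of counts in D + Q MOV (1.01 to 1.69%) and 0.806% ± 0.124 in vehicle MOV (0.697 to 0.959%), without overlap. With Rn18s and the mitochondrial transcripts removed before scaling, 25 members were lower. Removing so few genes can hardly move the TMM factors, so this count says nothing about Rn18s. The part of Rn18s in the members' values was not tested. In 3 members the groups did not overlap (0.591% of all genes were likewise lower without overlap and 0.853% higher), namely Mrpl12, Mrpl53 and Mrpl58, all lower.

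Mrpl12 was 78.95, 91.2, 75.1, 73.3 and 84.6 CPM in vehicle MOV and 63.9, 72.45, 67.0, 68.85 and 65.3 in D + Q MOV, so that each D + Q mouse was below each vehicle mouse. Its log2 fold change was -0.27 ± 0.075, with an unadjusted edgeR p of 0.00258 and an adjusted p of 0.523. The exact permutation p was 0.00794, the smallest that 5 against 5 mice can give. It is not adjusted for the number of members, and Mrpl53 and Mrpl58 gave the same value. After Mrpl12, the smallest edgeR p values were those of Mrpl45 (-0.25), Mrpl53 (-0.19), Mrps24 (-0.25) and Mrpl11 (-0.25). Mrpl53 was 38.3, 40.4, 37.2, 41.5 and 39.45 CPM with vehicle and 34.25, 34.2, 35.6, 35.7 and 34.25 with D + Q. Mrpl58 was 24.5, 25.7, 22.7, 22.2 and 22.8 CPM with vehicle and 21.6, 21.6, 20.6, 21.5 and 20.3 with D + Q (-0.17 ± 0.069). Mrpl16, which had the lowest value with MOV and vehicle, was at 0.00 ± 0.086 here and Mrpl3 at 0.01 ± 0.065.

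In the sham mice, D + Q against vehicle also called no member with edgeR or DESeq2 (lowest adjusted p with edgeR 0.164), beside 0.187% of 13926 genes higher and 0.0287% lower. At an unadjusted p under 0.05, 22 members were lower and none higher, beside 4.8% and 5.39% of all genes. The median was -0.095, and 70 of 78 members had a negative value (51.4% of all genes). The count was 9 on total counts alone, 14 without vehicle sham mouse 2, 13 without D + Q sham mouse 4 and 11 without D + Q sham mouse 5. Mrps22 was 17.6, 14.95, 15.3, 14.8 and 17.1 CPM with vehicle and 13.3, 13.6, 10.48, 12.0 and 13.6 with D + Q, without overlap (-0.36 ± 0.094, adjusted p = 0.164). Mrps9 was 32.3, 33.75, 32.1, 29.1 and 31.7 CPM with vehicle and 27.5, 25.5, 27.3, 28.8 and 27.6 with D + Q, also without overlap (-0.23 ± 0.063, adjusted p = 0.174). The others of the 5 smallest p values were Mrpl47 (-0.30), Mrps18c (-0.24) and Mrpl12 (-0.23), and Mrps31 (-0.18) was the remaining member whose groups did not overlap (0.697% of all genes lower, 1.35% higher).

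The 2 comparisons of D + Q with vehicle rest on different mice. Of the members at an unadjusted p under 0.05, 8 were shared, 32.0% of those in MOV and 36.4% of those in sham, and 65 members were below 0 in both. Since most members were negative in each comparison alone, most would be below 0 in both without any link. Neither count was set against all genes, so neither is read as a link. Their log2 fold changes correlated with r = 0.128 over the 78 members. The fibroblast markers moved with D + Q as well: 3 of 4 were higher in MOV and 4 of 4 in sham at an unadjusted p under 0.05, and their part in the members' values was not tested. Whether the effect of MOV differed between D + Q and vehicle was tested as an interaction over all 20 mice, and no member passed (lowest adjusted p 0.719), beside 0.00637% of 15700 genes in each direction. At an unadjusted p under 0.05, Mrps34 (-0.33 ± 0.11), Mrpl17 (-0.20), Mrpl11 (-0.21), Mrpl55 (-0.25) and Mrps24 (-0.23) were lower and Mrpl40 (0.29) and Mrps9 (0.25) higher, beside 3.17% and 2.54% of all genes. Of the 78 interaction values 47 were negative (52.6% of all genes negative, 47.4% positive). The count of lower members was 1 on total counts, 2 with DESeq2, 3 with RLE and 3 with limma-voom. It ran from 1 to 7 when 1 mouse was left out, and was 3 or less without vehicle sham mouse 1, 3, 4 or 5, D + Q sham mouse 1 or 5, vehicle MOV mouse 1 or 5, or D + Q MOV mouse 2, 3, 4 or 5. The calls that Mrps34, Mrpl11, Mrpl44 and others had with D + Q alone are therefore not shown to differ between the drug arms.

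**Figure D5:**
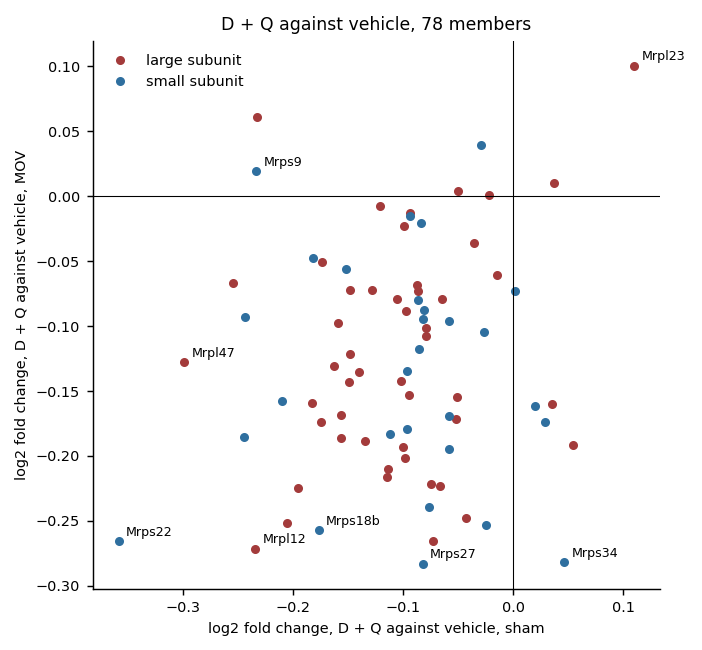
Log2 fold change of D + Q against vehicle for each of the 78 members, in sham mice (horizontal) and in MOV mice (vertical), after TMM scaling, with large and small subunit genes in 2 colours. The points lie mostly below 0 on both axes (65 members), with no member at an adjusted p under 0.05 in either and a Pearson r of 0.128 between the axes. Most members lie below 0 on each axis alone, so the 65 do not by themselves show a link.

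The exons of some members overlap those of other genes, and whether the counting used strand is not given in the sources used here. Of the canonical transcript, 64.2% of Mrps18c is overlapped by Abraxas1, 49.5% of Mrps18b by Gm16279, 49.4% of Mrpl10 by Gm11574, 20.3% of Mrpl53 by Ccdc142os, 19.7% of Mrps34 by Eme2 and 16.4% of Mrps22 by Copb2, all on the other strand, so reads of these pairs may not be told apart. Mrps6 shares 38.9% with Slc5a3 on its own strand. In GRCm39, Mrpl16 lies at chr19:11747737-11753838, Mrpl42 at chr10:95316559-95346150, Mrps27 at chr13:99480757-99552086, Mrps18b at chr17:36221266-36227606 and Mrpl12 at chr11:120375430-120381396, all protein-coding genes. Across mice within groups, the members' log2 levels correlated weakly with each other, with a median r of 0.228 over 3003 pairs, of which 78.2% were positive; the 2 members of a pair were measured in the same libraries with the same scaling factors.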

How the data were processed

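Whole plantaris RNA of 20 mice was sequenced and, by the submitters' processing notes and the study's methods, aligned with STAR 2.7.8a to GRCm39 and quantified in Partek by expectation maximisation. The deposited values were the authors' estimated counts per gene, not normalised. They were rounded to whole numbers. Each comparison of 2 groups was fitted on the 10 mice of those groups, the interaction on all 20, with edgeR 4.0.16 (R 4.3.3; quasi-likelihood, robust, TMM) for genes that reached 10 counts in 5 or more mice, with Benjamini-Hochberg adjustment over all genes tested and a threshold of 0.05. SE is the log2 fold change divided by the root of F. The alternatives used DESeq2 1.42.0 and limma 3.58.1. The main test was also run on simulated counts with means and spreads taken from these mice, in which 200 genes were changed. For MOV against sham with vehicle, 1 of them was recovered at a log2 size of 0.3 and 73 at 0.5. For D + Q against vehicle in MOV, 0 and 75 were recovered. Recovery may differ where many more genes change. Gene lengths, GC content and overlaps came from the GENCODE annotation, which 96.1% of gene names matched. Figures were drawn with Python 3.11.15 and matplotlib 3.10.9. The labels do not say that same-numbered mice were paired.

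The members and lists were chosen with earlier results of these data known. Genes named were, per comparison, the 4 largest rises and falls past the threshold; the 5 smallest p values for D + Q and the interaction; the 3 highest and 3 lowest levels per length; and members of known special role. Of the other lists, the largest rise and fall called were named, with the mitochondrial rRNAs and the ribosomal proteins of other names. Groups given in full, the non-overlapping members and the printed promoters were chosen after values were seen.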

Additional observations from a re-analysis of the deposited data

Results flagged for a closer look

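Of 160 groups of 5 mice examined (38 named members and 2 subunit sums in 4 groups), 8 held 1 mouse that stood apart from the others by Dixon's test at the 95% level, and chance gives about 1 in 20. Vehicle sham mouse 2 was the highest in 5 of them, with 124.0 CPM for Mrpl12 (next 103.6), 48.93 for Mrpl53 (next 40.06), 34.56 for Mrpl55 (next 29.01), 49.34 for Mrps18a (next 41.75) and 31.8 for Mrps31 (next 25.76), and it also had the highest sums of both subunits. Without this mouse, 45 members were lower in MOV with vehicle by TMM, and Mrpl12, Mrps18a and Mrps31 were at -0.31, -0.39 and -0.52, all still called. Vehicle MOV mouse 5 was the highest for Mrpl17 at 41.95 CPM (next 36.56). Among the D + Q MOV mice, mouse 3 was the lowest for Mrpl1 at 15.46 CPM (next 19.65) and mouse 4 the lowest for Mrpl16 at 20.35 (next 23.41). No member passed an adjusted p under 0.05 in the interaction.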

How the results depend on the processing

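The direction of MOV against sham depended on whether TMM or the total counts set the scale. Of the settings run, only total counts alone turned the medians of the subunits positive. With RLE size factors, 4567 of all genes were called higher and 4223 lower with vehicle, and 5030 and 4744 with D + Q. DESeq2 called 5239 higher and 4277 lower with vehicle, and 5683 and 4789 with D + Q. On total counts alone, 24 members were higher and 4 lower with vehicle, and 26 higher and 10 lower with D + Q, with medians of 0.078 (large) and 0.10 (small) with vehicle and 0.074 and 0.083 with D + Q. Of all genes, 7671 of 14601 were called higher and 1457 lower with vehicle, and 8378 and 1658 of 14913 with D + Q. By sign, 48 and 49 of the 78 members were then positive, against 5 and 6 by TMM. Among the members named for their role or rank, those that turned positive with vehicle were Mrpl58 0.21, Mrps30 0.16, Mrps18c 0.33, Mrpl10 0.13, Mrpl11 0.26, Mrpl3 0.024 and Mrpl44 0.26, and with D + Q Mrpl58 0.23, Mrps30 0.077, Mrpl10 0.21, Mrpl11 0.080, Mrpl3 0.01, Mrpl44 0.18, Mrps16 0.22, Mrps22 0.10 and Mrps34 0.08. These shifts follow from the construction, since the median of all genes moves with the scaling. A stricter minimum of 50 counts gave Mrps18c 0.0011 with vehicle and 1 higher member with D + Q. Correction for canonical length and GC content gave 2 higher members with vehicle and 4 with D + Q, Mrps18c 0.076 and Mrps34 -0.079 with vehicle; with the replicate block added it gave 1 and 3 higher members, Mrps18c 0.074 and Mrps34 -0.086. A form of this correction with merged-exon length and no centring was run first and, once its values were seen, was replaced by the centred one; it gave Mrps12 -0.35, Mrps16 -0.26 and Mrps34 -0.48 with vehicle and Mrps18c -0.18 and Mrps12 -0.24 with D + Q. Canonical length was likewise chosen after the annotation was seen. For D + Q against vehicle in MOV, Mrpl3 was -0.0083 with limma-voom, -0.014 and -0.015 with the centred correction without and with the block, and -0.047 with the uncentred one. In the interaction, Mrpl58 was 0.0093 with DESeq2, 0.0080 with RLE, 0.021 on total counts, 0.0011 with the stricter minimum and 0.0029 with limma-voom, and Mrps5 0.0012, 0.000714 and 0.013 with the first 3. The cause of the other shifts was not tested.

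Same-numbered mice correlated between groups at -0.150 to 0.185, which shows no pairing by number but cannot exclude it. With the replicate block, 49 and 51 members were lower with MOV. Leaving out 1 mouse at a time gave 43 to 52 lower members with vehicle and 47 to 54 with D + Q, and 0 to 1 higher with D + Q (1 without D + Q sham mouse 1 or D + Q MOV mouse 4). Over the same omissions, the interaction value of Mrpl12 ran from -0.11 to 0.0048, of Mrpl3 from -0.073 to 0.00045, of Mrpl58 from -0.029 to 0.019, of Mrps12 from -0.014 to 0.10, of Mrps36 from -0.12 to 0.0066 and of Mrps5 from -0.045 to 0.031. The D + Q value of Mrpl3 in MOV ran from -0.018 to 0.038, and those of Mrps16 and Mrps36 in sham from -0.023 to 0.088 and from -0.12 to 0.0015. With MOV and vehicle, Mrps16 ran from -0.027 to 0.066, Mrps18c from -0.075 to 0.015 and Mrps34 from -0.035 to 0.083.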
